A study of Homo sapiens with 7 samples.

Results

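The loci of 10 absorptive and lipid handling genes, MTTP, MLXIPL, FABP1, FABP2, APOB, PLIN2, VIL1, DPP4, SI and LGALS3, were examined for binding of the transcription factor GATA6 in LS174T colorectal carcinoma cells. A GATA6 peak belonged to a locus if its summit lay in a window of 180 to 310 kb set around the gene in hg19. The windows held 27 of the 7568 peaks of the deposited list, and 9 of the 10 windows held at least 1. Genes and windows were chosen from the positions of these same peaks, so the numbers of peaks and their scores are given as descriptions, with no test.

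The study made 7 chromatin immunoprecipitation sequencing (ChIP-seq) libraries from LS174T, an established human cell line. There were 3 GATA6 libraries, 3 libraries of histone modifications (1 each for H3K27ac, H3K4me3 and H3K4me1) and 1 input library without antibody. Nothing said whether the numbered GATA6 libraries came from separate cultures. All came from this one line, grown with 10% serum and cross-linked with 1% formaldehyde for 15 min, and no treatment was named. The list of GATA6 peaks was the file used here; it gives no value per library, so replicate spread cannot be given for any result, and library depth is unknown. A peak list also holds no expression values, so the enterocyte markers among these genes could not be used to check the cell type.

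GATA6 is a zinc-finger protein of endoderm-derived epithelia that recognises the bases GATA with A or T before and A or G after them. In the small intestine of the mouse, GATA factors are required for normal expression of many absorptive genes. Absorptive cells take up fatty acids across a brush border, bind them inside the cell, store them in droplets and export them in lipoproteins. Of the 10 genes, 6 take part in lipid handling, VIL1, DPP4 and SI encode brush border proteins, and LGALS3 encodes a lectin. No hg19 genome or annotation was used here, so peaks are given by position and are not placed in an exon, intron or promoter, nor assigned to a gene. The bases under the peaks are not shown for the same reason.

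Sequences from RefSeq show whether the genes themselves carry a word that GATA6 can recognise close to their start. Promoters of GRCh38.p14 were found for 8 of the 10 genes (MTTP with a pair of promoters), all but APOB and VIL1. The search took GATAA and GATAG, each with A or T before it, on both strands of the 250 bases before each gene start. Of these 9 promoters, 5 held a word, 1 each, against 22.3% of 35116 promoters in the table. The 5 matches are shown in capitals, with up to 47 bases on either side, on the strand of the gene and 5′ to 3′:

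MTTP: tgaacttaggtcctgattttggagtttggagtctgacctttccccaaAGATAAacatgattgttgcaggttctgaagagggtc

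MLXIPL: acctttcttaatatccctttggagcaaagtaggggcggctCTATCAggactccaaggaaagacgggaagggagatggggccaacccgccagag

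FABP1: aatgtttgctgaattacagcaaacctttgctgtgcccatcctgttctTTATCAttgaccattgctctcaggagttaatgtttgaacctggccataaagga

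FABP2: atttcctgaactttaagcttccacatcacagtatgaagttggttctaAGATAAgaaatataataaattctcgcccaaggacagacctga

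SI: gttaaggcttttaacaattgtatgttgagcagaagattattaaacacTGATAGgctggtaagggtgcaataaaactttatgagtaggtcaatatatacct

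The MTTP stretch (chr4:99574741-99574823, plus strand) and the FABP2 stretch (chr4:119322139-119322227, minus strand) hold AGATAA on the strand of the gene, starting 36 and 42 bases before the gene start. In SI (chr3:165078515-165078614, minus strand) the word is TGATAG, 71 bases before the start. FABP1 (chr2:88128143-88128242, minus strand) and MLXIPL (chr7:73624680-73624772, minus strand) hold TTATCA and CTATCA, which read TGATAA and TGATAG on the other strand, at 133 and 210 bases. The PLIN2, DPP4 and LGALS3 promoters and the other MTTP promoter held none. These positions are of GRCh38.p14 and cannot be set against the hg19 positions of the peaks. A match describes the sequence only, and the lack of one says only that these letters are not in this stretch. Of the 5 genes with a word, MTTP had 6 peaks in its window, FABP1 4, MLXIPL and SI 1 each, and FABP2 none. Of the 3 genes without one, LGALS3 had 6, PLIN2 5 and DPP4 2.

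Peaks were unevenly spread over the 10 loci. The LGALS3 and MTTP windows held 6 each, the PLIN2 window 5, the FABP1 window 4 and the DPP4 window 2. The MLXIPL, APOB, VIL1 and SI windows held 1 each, and the FABP2 window held none. To read these numbers, every chromosome from 1 to 22 and X was divided between its first and last summit into consecutive windows of the same size as each locus, 9340 to 16091 windows depending on the size. Such windows held at least 1 peak in 28.0% to 40.4% of cases, and 10 windows with these shares would together be expected to include 3.45 with a peak, where 9 were seen. The 27 peaks of the 10 windows compared with 6.32 in the same length of tiled windows, 4.27 times as many. Windows chosen for their peaks hold more than others by that choice, and the ratio describes it. With peaks at or above the list's median −log10 p alone, 8 peaks in 6 windows were left, 2.53 times the number in tiled windows. Without LGALS3 and MTTP, the other 8 windows held 15 peaks against 5.02, or 2.99 times as many. The tiled windows also cover regions far from any gene, and windows around other genes were not compared.

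**Figure D1:**
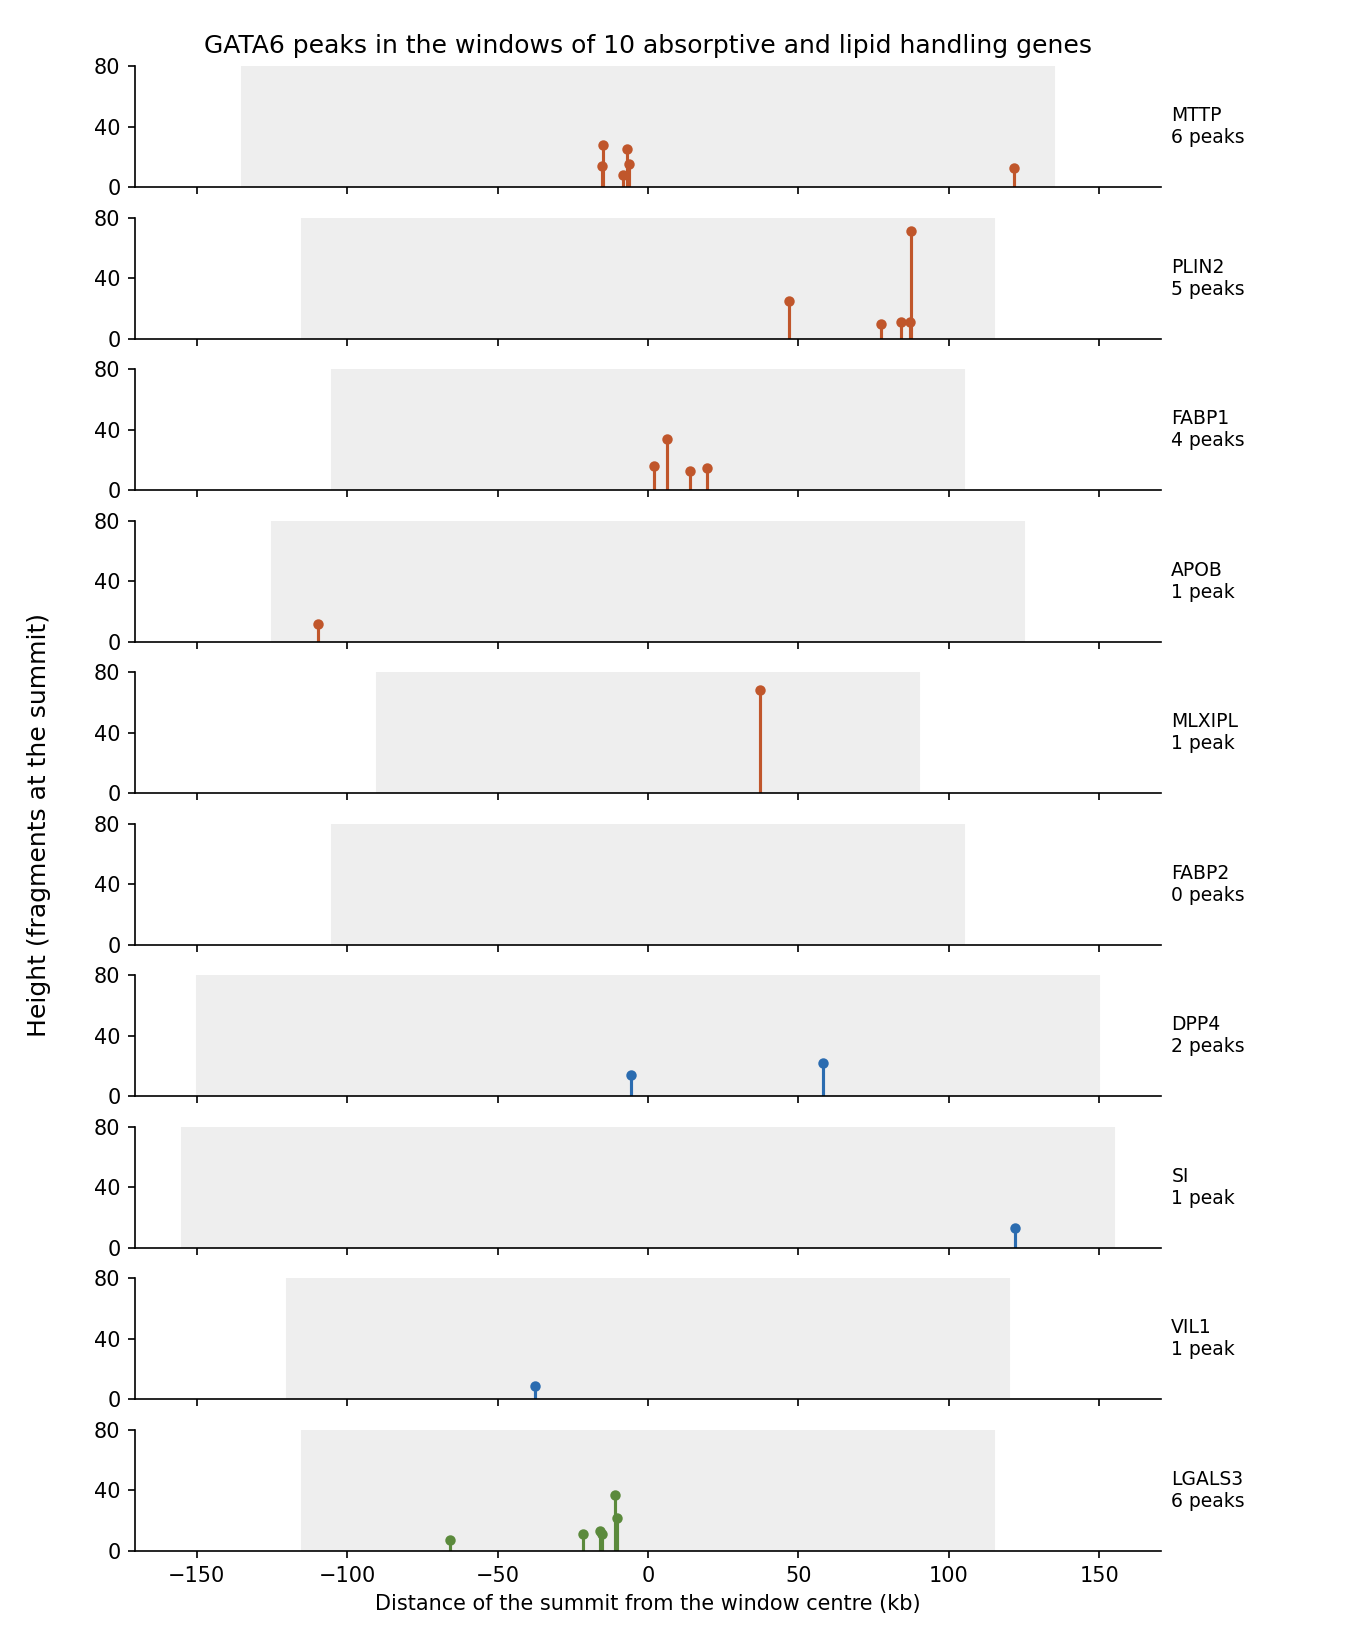
GATA6 peaks in the 10 windows. Each row is a locus, the horizontal axis is the distance of the summit from the window centre in kb, the vertical axis is the height in fragments, and the grey area is the window. Lipid handling genes are orange, brush border genes blue and LGALS3 green; the tallest peaks are those of PLIN2 (71 fragments) and MLXIPL (68 fragments).

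**Figure D2:**
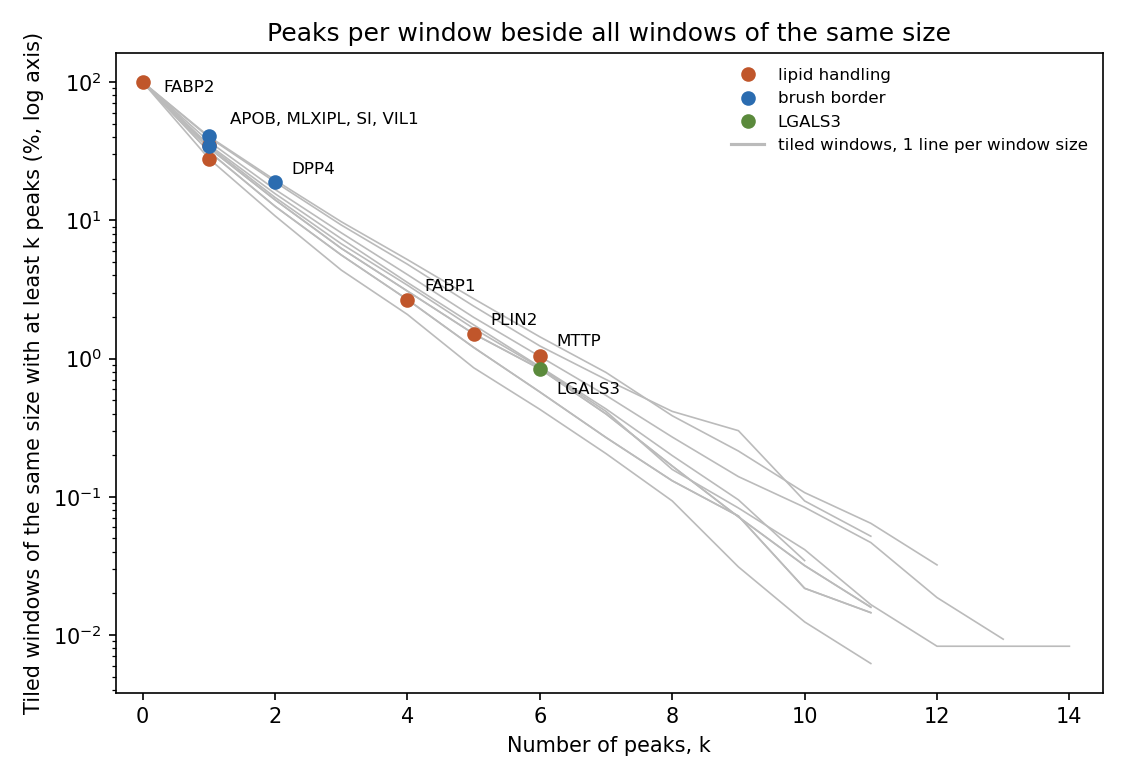
Percent of tiled windows that hold at least k peaks (vertical log axis) against k, with a grey line for each window size and a point for each locus at its own number of peaks. The LGALS3 point lies at 0.842% and the MTTP point at 1.03%, while FABP2, with 0 peaks, lies at 100% by construction.

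Pooled by role of the gene, peaks per Mb were lowest in the brush border windows and highest in the LGALS3 window. The 6 windows of lipid handling genes held 17 peaks over 1.35 Mb, or 12.6 per Mb, against 3.51 peaks in the same length of tiled windows. They were far from alike: MTTP held 22.22 per Mb, PLIN2 21.74 and FABP1 19.05, but MLXIPL 5.56, APOB 4.0 and FABP2 0. The 3 windows of brush border genes held 4 peaks over 0.85 Mb, or 4.71 per Mb, against 2.21 in tiled windows. DPP4 held 6.67 per Mb, VIL1 4.17 and SI 3.23. The values of VIL1 and SI lay in the range of the sparser lipid handling windows, and that of DPP4 lay above it. The LGALS3 window alone held 6 over 0.23 Mb, or 26.1 per Mb, against 0.598 in tiled windows. All 10 windows together held 11.1 per Mb. The lipid handling windows supplied 17 of those 27 peaks, so that value is no separate reference for them. These groups were formed by what the genes are known to do, and the difference between them was not tested, since the windows were chosen with their peaks known.

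MTTP encodes the large subunit of the microsomal triglyceride transfer protein, which loads lipid onto apolipoprotein B. Its window, chromosome 4 from 100380000 to 100650000, held 6 peaks, a number reached by 1.03% of tiled windows of 270 kb (37.2% held at least 1). With summits within 1 kb joined, it held 4, a number reached by 3.42%. Of the 6 peaks, 5 lay within 8.97 kb. The first pair, from 100499567 to 100499741 and from 100499957 to 100500220, had heights of 14 and 28 fragments at folds of 7.02 and 16.04 over the local background. The height is the number of fragments stacked at the summit, and the fold is that number divided by the local background of the caller. After 6.78 kb without a summit followed peaks from 100506809 to 100506983, from 100507967 to 100508248 and from 100508547 to 100508725. Their heights were 8, 25 and 15 fragments, at folds of 7.64, 12.53 and 10.74. The heights of 28 and 25 had 95% Poisson intervals of 18.6 to 40.5 and 16.2 to 36.9, so their order was not resolved. The height of 8 had an interval of 3.45 to 15.8, below both. The last peak, from 100636562 to 100636778, stood 128 kb away, with a height of 13 at a fold of 13.03. TRMT10A and C4orf54 are the nearest protein-coding neighbours of MTTP in RefSeq GRCh38.p14.

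APOB encodes apolipoprotein B, the structural protein of chylomicrons and very low density lipoproteins and the partner of MTTP. Its window, chromosome 2 from 21120000 to 21370000, held 1 peak, and 35.1% of tiled windows of 250 kb held at least 1. That peak, from 21135296 to 21135493, lay 15.3 kb inside the left edge of the window. It was modest, with a height of 12 (6.20 to 21.0), a fold of 12.03 and a −log10 p of 10.21, rank 5119 of 7562. The remaining 234.7 kb of the window held none, and the nearest other peaks stood 764 kb before and 1835 kb beyond its edges. Of the 2 genes of lipoprotein assembly, MTTP thus had 6 peaks and APOB 1 near the window edge.

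FABP1 and FABP2 encode the liver and intestinal fatty acid binding proteins, which carry fatty acids through the cytosol of absorptive cells. The FABP1 window, chromosome 2 from 88320000 to 88530000, held 4 peaks, a number reached by 2.67% of tiled windows of 210 kb (31.4% held at least 1). All 4 lay within 17.5 kb. The tallest, from 88431122 to 88431436, reached 34 fragments (23.6 to 47.5) at a fold of 32.46, with a −log10 p of 39.75, rank 513 of the list. Its neighbours were lower, with heights of 16 from 88426856 to 88427228, 13 from 88438744 to 88438980 and 15 from 88444349 to 88444778, at folds of 8.02, 13.03 and 8.59. The intervals of the heights of 16, 9.15 to 26.0, and 15, 8.395 to 24.7, overlapped that of the tallest. The interval of 13, 6.92 to 22.2, did not. Summits were spaced by 4.19, 7.565 and 5.78 kb. SMYD1 and THNSL2 flank FABP1 in RefSeq GRCh38.p14.

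The FABP2 window, chromosome 4 from 120140000 to 120350000, held no peak. Of tiled windows of this size, 68.6% held none and 31.4% at least 1, so an empty window was the more common case. The nearest peaks outside it stood 1371 kb before its left edge, from 118769000 to 118769348, with 26 fragments, and 163 kb beyond its right edge, from 120512461 to 120512803, with 11. The list holds peaks that passed the caller's threshold, and its lowest height anywhere was 6 fragments. Binding below that threshold at FABP2 cannot be judged from it. FABP1 and FABP2 are near relatives in function, and their windows of equal size held 4 peaks and none.

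PLIN2 encodes perilipin 2, which coats cytosolic lipid droplets. Its window, chromosome 9 from 19000000 to 19230000, held 5 peaks, a number reached by 1.51% of tiled windows of 230 kb (33.4% held at least 1). At a −log10 q of at least 5 it held 3, a number reached by 4.61%. The heights of all 5 peaks summed to 128 fragments, the highest sum of the 10 windows, and 71 of these came from 1 peak. That peak, from 19202176 to 19202655, was the tallest and, at 480 bp, the widest of the 27. Its height had an interval of 55.5 to 89.6, its fold was 35.58 and its −log10 p 83.04, rank 43 of the list. The peak from 19201945 to 19202119 ended 56 bp before it and had a height of 11, and their summits lay 330 bp apart. Only 16 of the 7539 neighbouring pairs of the list had a gap of 56 bp or less. That gap was the smallest between peaks of the windows and was picked out with its value already known. Lower peaks preceded them, with heights of 10 from 19192418 to 19192600 and 11 from 19199028 to 19199235. The fold of the peak of height 10, 5.73, was the smallest of the 27. A peak of 25 fragments at a fold of 17.9, from 19161639 to 19162009, stood 30.8 kb before this group. HAUS6 and DENND4C flank PLIN2 in RefSeq GRCh38.p14.

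MLXIPL encodes ChREBP, a glucose-responsive transcription factor that switches on genes of fatty acid synthesis. Its window, chromosome 7 from 72900000 to 73080000, held 1 peak, and 28.0% of tiled windows of 180 kb held at least 1. This peak, from 73027074 to 73027409, had by far the highest fold and −log10 p of the 27. Its height was 68 fragments (52.8 to 86.2), and its fold of 138.96 ranked 1 among the 7562 peaks. It ranked 8 by −log10 p (119.86) but 34 by height. The local background was 0.489 fragments, the lowest in the list, which 6.20% of all peaks and 1 of the 27 had. Against the PLIN2 peak of 71 fragments the heights did not differ beyond counting error, and the folds of 138.96 and 35.58 differed with the backgrounds of 0.489 and 2.00. No other peak lay within 180.8 kb. TBL2 and VPS37D flank MLXIPL in RefSeq GRCh38.p14.

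The 3 brush border windows held 4 peaks, 1.81 times the number in tiled windows. Their median height was 13.5 fragments and their median fold 14.08, against 14 and 12.53 for all 27 peaks. DPP4 encodes dipeptidyl peptidase 4, a membrane protease that cleaves incretin hormones. Its window, chromosome 2 from 162740000 to 163040000, held 2 peaks, a number reached by 18.9% of tiled windows of 300 kb (39.9% held at least 1), and 1 at a −log10 q of at least 5, a number reached by 36.0%. The 2 peaks lay 63.7 kb apart. The peak from 162884242 to 162884439 had 14 fragments at a fold of 7.02, and the one from 162947947 to 162948251 had 22 (13.8 to 33.3) at a fold of 15.75. SLC4A10 and GCG, the gene of glucagon and its related peptides, flank DPP4 in RefSeq GRCh38.p14. SI encodes sucrase-isomaltase, which splits dietary disaccharides. Its window, chromosome 3 from 164590000 to 164900000, held 1 peak, from 164866917 to 164867132, with a height of 13 (6.92 to 22.2) at a fold of 12.41, and 40.4% of tiled windows of 310 kb held at least 1. VIL1 encodes villin, the actin-bundling protein of microvilli. Its window, chromosome 2 from 219180000 to 219420000, held 1 peak, from 219262482 to 219262700. It had 9 fragments (4.12 to 17.1), but its low background of 0.524 gave a fold of 17.18, and 34.4% of tiled windows of 240 kb held at least 1. None of these 4 peaks had a neighbour within 10 kb, while 27.2% of the list had one, so lacking one was the more common case. The taller DPP4 peak, 1 of the 4, reached the median height of the list, as did 50.7% of the list. With 4 peaks these shares were not tested.

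LGALS3 encodes galectin-3, a lectin that binds beta-galactosides and is made by many epithelial cells. Its window, chromosome 14 from 55490000 to 55720000, held 6 peaks, a number reached by 0.842% of tiled windows of 230 kb (33.4% held at least 1). With summits within 1 kb joined, it held 4, a number reached by 2.61%. Of the 6 peaks, 5 lay within 11.3 kb. The tallest, from 55593819 to 55594171, had 37 fragments (26.1 to 51.0) at a fold of 17.66, with a −log10 p of 33.4. The next peak, from 55594435 to 55594677, followed it by 525 bp between summits. It had 22 fragments (13.8 to 33.3) at a fold of only 7.35, over a background of 2.99 fragments, the highest of the 27. The other 3 of the group were lower, from 55583153 to 55583347 (height 11), from 55588833 to 55589271 (height 13) and from 55589490 to 55589770 (height 11). The outlying peak, from 55538956 to 55539130, stood 44.2 kb before them and had 7 fragments (2.81 to 14.4), the lowest height of the 27. MAPK1IP1L and DLGAP5 lie near LGALS3 in RefSeq GRCh38.p14.

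Peaks came in tight groups at 4 of the 10 loci. Of the 27, 18 (66.7%) had another summit within 10 kb, against 27.2% of the list. All 18 belonged to 4 groups, 1 each at LGALS3 and MTTP with 5 peaks and at FABP1 and PLIN2 with 4. Every peak at MLXIPL, APOB, VIL1, DPP4 and SI stood alone. The whole list held 7 groups of 5 or more and 35 of 4 or more when summits within 10 kb were linked. The loci were chosen with such peaks in view, so these shares describe the choice. Inside the groups, 5 pairs of summits lay within 1 kb, and their spacings were 414 and 502 bp at MTTP, 330 bp at PLIN2, and 581 and 525 bp at LGALS3. FABP1 had no such pair. With summits within 1 kb joined, the 27 peaks became 22, and LGALS3, MTTP, PLIN2 and FABP1 had 4 each. Each group had 1 peak that stood highest, at 37 fragments for LGALS3, 28 for MTTP, 34 for FABP1 and 71 for PLIN2, but the interval of that height was clear of all others in its group only at PLIN2.

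**Figure D3:**
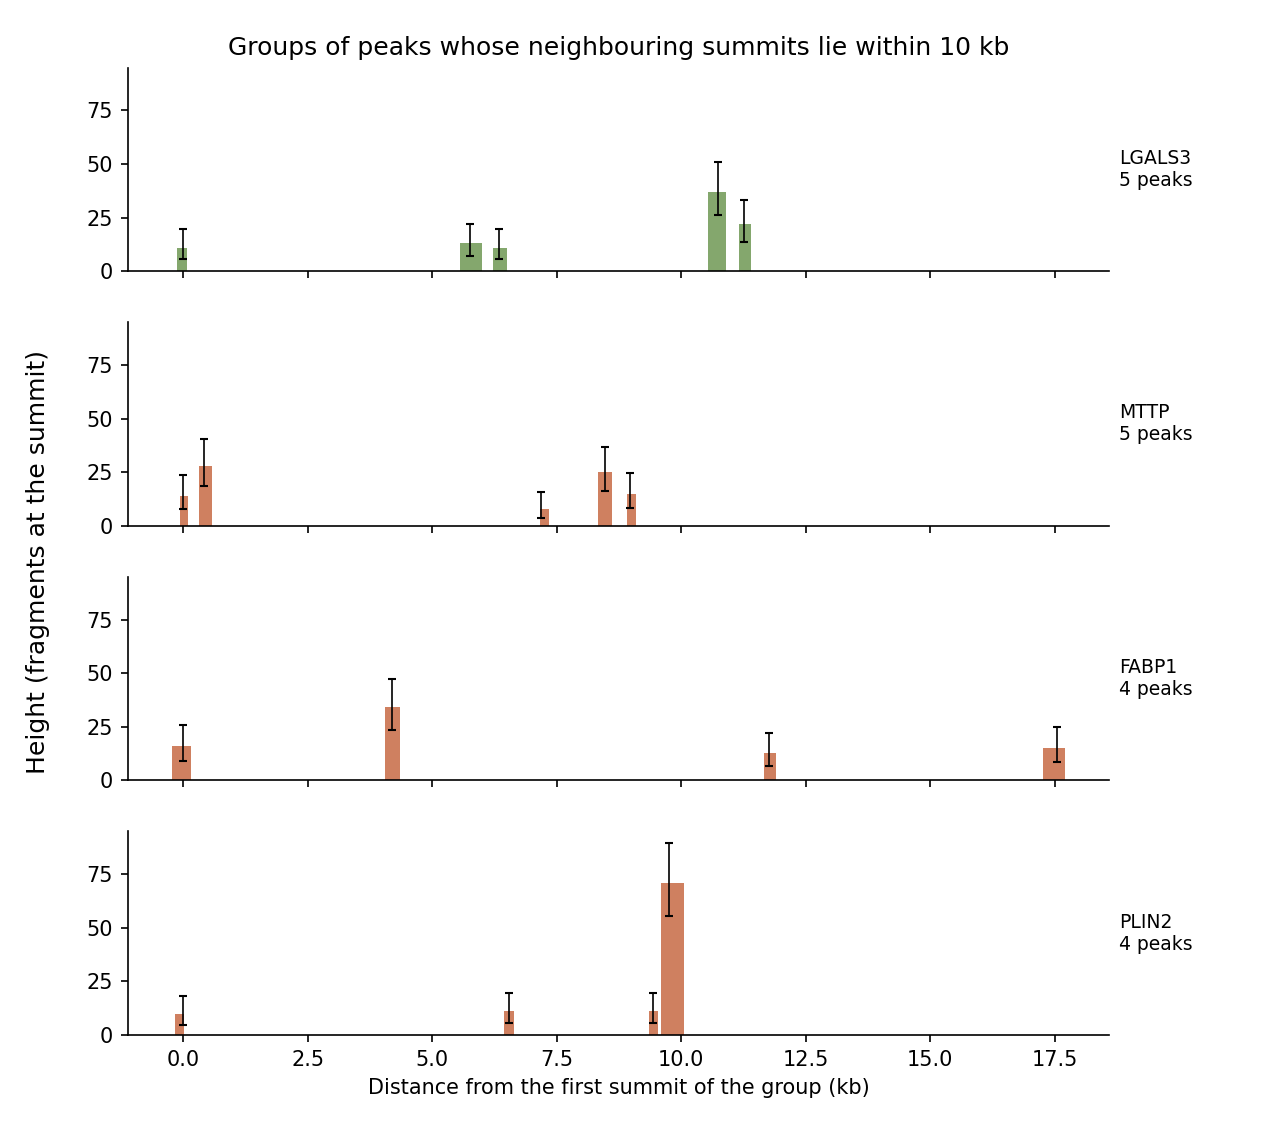
The 4 groups of peaks whose neighbouring summits lay within 10 kb. The horizontal axis is the distance from the first summit of the group in kb, bars span each peak from start to end, bar heights are fragments at the summit, and error bars are 95% Poisson intervals. The PLIN2 group ends in a peak of 71 fragments beside one of 11, while the MTTP group reaches 28 and 25 fragments in separate places.

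Most peaks of these loci were not tall. Their median height was 14 fragments (95% order-statistic interval 11 to 22), against 16 over the 7562 peaks of chromosomes 1 to 22 and X. The median fold was 12.53 (8.59 to 15.75), against 14.03, and the median local background was 1.40 fragments (0.998 to 1.99), against 1.05. The median width was 237 bp (198 to 315) in the windows and 251 bp in the list. In each of the 4 measures the interval of the median over the 27 included the median of the list. These intervals treat the peaks as independent. Neighbouring peaks are not, and 18 of the 27 lay in 4 groups, so the intervals may be too narrow and only describe. At or above the median height of the list were 10 of the 27 peaks (37.0%, 95% exact binomial interval 19.4% to 57.6%), against 50.7% of the list. At or above its median fold were 8 (29.6%, 13.8% to 50.2%), against 50.9%, a value just above that interval. The same limit holds for these intervals. The smallest width, 175 bp, was found in 4 of the 27 (14.8%), against 9.03%. Among the top 10.0% of the list by −log10 p stood 3 peaks (11.1%), those of MLXIPL, PLIN2 and FABP1, a share near that of the list.

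**Figure D4:**
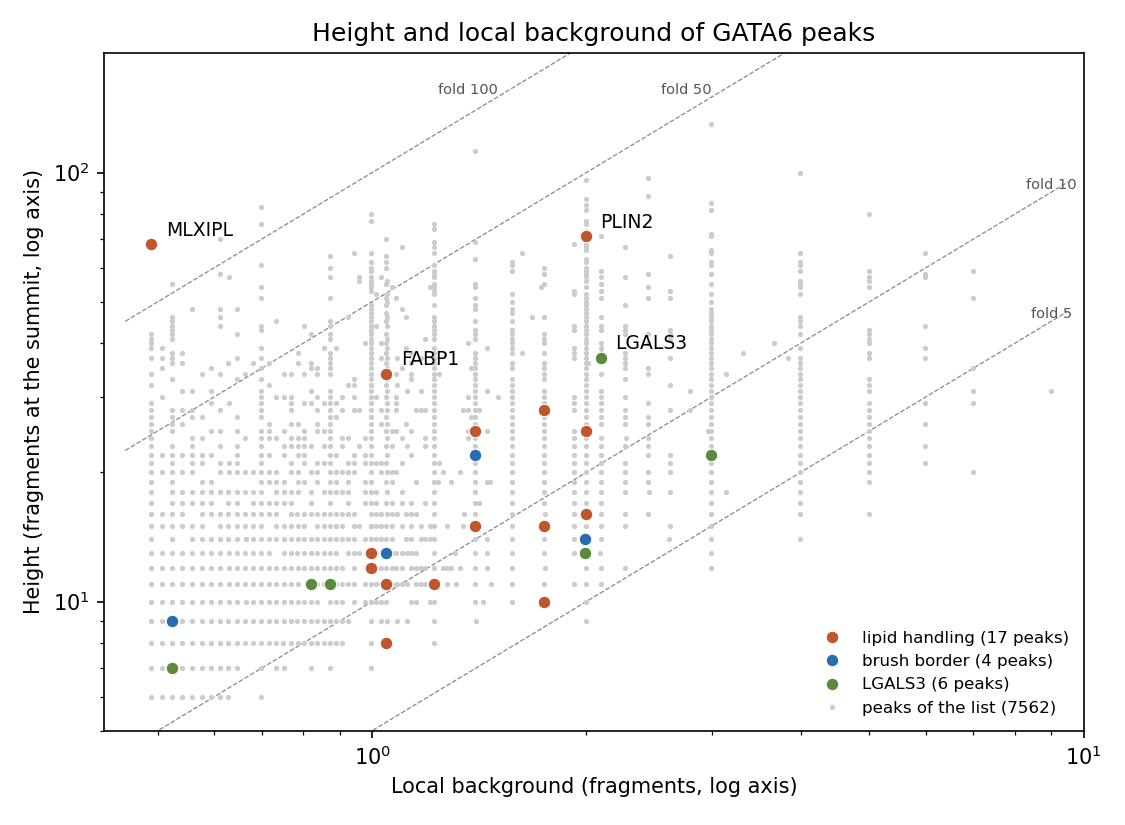
Height against local background, both in fragments on log axes, for the 27 peaks of the loci (coloured) and all 7562 peaks (grey); dashed lines mark equal folds. MLXIPL, at 68 fragments over 0.489, lies farthest toward high fold, while PLIN2 has a similar height over 2.00. A pair of coloured points at 13 fragments and another at 14 fragments coincide.

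Of the 27 peaks, 19 lay at least 50 kb inside the edges of their window. Among peaks near an edge, the closest peaks left out were 1.55 kb beyond the DPP4 window (from 163041339 to 163041763, height 26, fold 24.82) and 4.37 kb before the FABP1 window (from 88315576 to 88316170, height 10, fold 11.46). The next were 9.995 kb before the PLIN2 window (height 10), 22.4 kb beyond it (height 17) and 27.2 kb before the VIL1 window (height 10). These 5 were the only peaks within 50 kb outside the windows. Taking for each window the counted peak closest to an edge, the nearest were those of MTTP at 13.4 kb (height 13), APOB at 15.3 kb (height 12), PLIN2 at 27.65 kb (height 71) and SI at 33.0 kb (height 13). The DPP4 peak left out was taller than both peaks counted there, although its interval was not separated from that of the height of 22.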

How the data were processed

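GATA6 ChIP-seq of LS174T cells was analysed from 1 list of peaks. Per the submitters' processing notes, CASAVA 1.8 and BWA 0.5.9-r16 were used on hg19; peak caller, control and any pooling of the 3 libraries: not given in the sources used here. Per the file headers, each peak has a pileup (a coverage signal, here the height), a fold enrichment (a linear ratio), and −log10 p-values and q-values. Positions counted from 1, since width equalled end minus start plus 1 in all 7568 peaks. The local background was computed as height over fold; the Poisson −log10 p recomputed from it differed by at most 0.0159 from the deposited one. These scores are the authors' own and only rank and describe peaks within the list.

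Genes, windows and groups were chosen with earlier results of these data known. All 10 genes of the rule are named, and every peak in their windows is given. Tiled windows ran from the first to the last summit of chromosomes 1 to 22 and X, incomplete last windows dropped; the 6 peaks elsewhere were left out. Intervals of a height are exact Poisson at 95% and cover only counting error: without molecular identifiers, fragments are no independent molecules. Window counting was tested on simulated data, where all 200 of 200 windows gave the planted number. Python 3.11.15, pandas 2.3.3 and SciPy 1.17.1 were used. The motif share at peaks and the count over other absorptive genes needed hg19 and were not run; histone and input libraries were not analysed here.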

Additional observations from a re-analysis of the deposited data

How the results depend on the processing

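The 27 peaks in the windows became 20 at a −log10 q of at least 5, 22 with summits within 1 kb joined, 32 with windows widened by 50 kb on both sides, and 19 with windows narrowed by as much. Among peaks at or above the list's median −log10 p they numbered 8, in 6 windows, and the ratio to tiled windows was then 2.53 in place of 4.27. Under the other settings tried that ratio ran from 2.99 to 5.11. It was 4.0 with the largest peak-free interval of each chromosome left out, a setting chosen after seeing the data, as was leaving out LGALS3 and MTTP. Windows with a peak numbered 9 in all settings but that median threshold (6) and narrowed windows (7, without APOB and SI). PLIN2 fell to 1 peak in the narrowed window. FABP2 held 0 in every setting.

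The median height stayed between 13 and 15.5 and the median fold between 12.03 and 13.03. Among tiled windows, LGALS3's share ran from 0.596% (tiles shifted within the chromosome) to 2.61% (joined summits), MTTP's from 1.03% to 3.42% (joined summits; 2.85% at a −log10 q of at least 5) and PLIN2's from 1.4% to 4.61% (at that −log10 q), and DPP4's rose to 36.0% at a −log10 q of at least 5, where it kept 1 peak. Promoters of protein-coding genes alone gave 17.9% with a GATA word in place of 22.3%, likewise chosen after seeing the data. Without hg19 the distance of the motif search from the summit was not varied. With 1 list for 3 libraries, no library could be left out.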

Other observations

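At PLIN2, the summit of the peak from 19192418 to 19192600 lay 8 bp from its end. Of the 7562 peaks, 13 (0.172%) had a summit as close to either end or closer. It was picked out with its value already known.

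Across loci, 2 pairs of peaks had identical heights and folds. The last MTTP peak and the FABP1 peak from 88438744 to 88438980 both had 13 fragments at a fold of 13.03, and the first MTTP peak and the first DPP4 peak both had 14 at 7.02.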
